A study of Mus musculus with 14 samples.

Results

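ACLY KO cells, which can no longer cleave citrate to acetyl-CoA and keep the acetate route, were compared directly with ACSS2 KO cells, which keep the citrate route and have lost the enzyme that activates acetate in the nucleus and cytosol. The comparison used 7 of the 14 RNA-seq libraries of the study, chosen by genotype label alone, with 4 from ACLY KO cells (replicates 1 to 4) and 3 from ACSS2 KO cells (replicates 1, 2 and 4). The paper describes the lines as isogenic, made from mouse hepatocellular carcinoma (HCC) cells with floxed Acly alleles (Acly f/f). Such HCC cells had been grown out of liver tumors that diethylnitrosamine induced in Acly f/f mice. The number of parental lines and tumors behind these libraries is not stated. The ACLY KO line was made with adenoviral Cre, taken through a single-cell clone and then given the empty LentiCRISPR v2 vector, and its cells still had their own Acss2 gene. The ACSS2 KO line carried LentiCRISPR v2 with a guide against the first exon of Acss2 and was a single-cell clone of the parental Acly f/f line, with Acly undeleted. WT cells, the parental line with the empty vector, gave 4 libraries, and DKO1 cells, a clone of ACLY KO cells that received the same Acss2 guide, gave 3, and both are used only to show where a level lay outside the comparison. All cells were kept for 24 hours in DMEM with 10% calf serum before RNA was taken. Since each genotype was 1 line, the effect of a genotype and the effect of the clone cannot be told apart. The sources do not say that the libraries of a genotype came from separate cultures, so p-values measure only the spread between these samples, which may be technical.

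Acetyl-CoA made in mitochondria does not cross the inner membrane. Cells therefore export citrate, which ACLY cleaves in the cytosol, or take up and recapture acetate, which ACSS2 joins to coenzyme A. A further path carries acetyl groups out as acetylcarnitine. The cytosolic and nuclear pool feeds fatty acid and sterol synthesis and is the substrate of histone acetyltransferases, and in the liver these pathways are under the control of the SREBP transcription factors, which respond to sterols and insulin.

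Values are normalized counts per gene and library, that is read counts scaled by the authors with the normalization factors of DESeq. Differences are log2 fold changes of ACLY KO over ACSS2 KO on the log2(value + 1) scale, which understates the change of genes with low values, given with the standard error (SE) and the adjusted p from limma over all 12676 genes tested. A gene was called higher or lower in ACLY KO cells at an adjusted p under 0.05. The stricter call, differentially expressed, asked for an adjusted p under 0.01 and a log2 fold change above 1.5 in absolute size. The totals of normalized counts ranged from 23912713 to 24006385 in ACLY KO and from 23976003 to 24124720 in ACSS2 KO libraries, and the implied depths were 20265011 to 28923355 and 23053849 to 33382516 reads. Single libraries also followed transcript length. Across 12594 genes, the deviation of a library from its group mean had a Spearman correlation with transcript length of -0.58 in ACLY KO replicate 4 and -0.52 in ACSS2 KO replicate 1, and of 0.18 to 0.44 in the other 5 libraries, which describes genes within libraries and carries no test.

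The labels were checked on the genes targeted. Acly stood at 1084, 971, 984 and 965 normalized counts in the 4 ACLY KO libraries and at 5542, 5748 and 5762 in the 3 ACSS2 KO libraries, a log2 fold change of -2.51 (SE 0.05, adjusted p = 1.2e-10). Acss2 stood at 787, 660, 739 and 685 in ACLY KO cells and at 127, 135 and 135 in ACSS2 KO cells, a log2 fold change of 2.43 (SE 0.08, adjusted p = 8e-10). Each targeted transcript was lower in its own knockout, with no overlap, and neither was listed at 0. What remains of each in its own knockout may be transcript of the altered gene or may come from the way the deposited values were normalized, which was not tested. WT cells had 6050 ± 423 (SD, n = 4) normalized counts of Acly and 237 ± 11.5 of Acss2, so the Acss2 level of ACLY KO cells was above WT as well as above ACSS2 KO cells.

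The labelled cell type was also compared with its markers. Only 7 of 17 hepatocyte markers passed the filter on low values, a mean of at least 10, and the 17 summed to 199 to 250 normalized counts in ACLY KO and 292 to 328 in ACSS2 KO libraries, with Apoc3, Ass1 and G6pc at 0 in all 7. Of the 7 hepatocyte markers tested, 3 (42.9%) were higher in ACLY KO and 2 (28.6%) lower (median 0.098). Over all genes tested these shares were 35.0% and 35.4%. Alb, described below, was lower in ACLY KO and gave a larger part of the ACSS2 KO sum, so the sums do not show a fall of the list. The 8 cholangiocyte markers all passed and summed to 31857 to 33800 in ACLY KO and 42145 to 45316 in ACSS2 KO libraries. Spp1, which encodes the secreted protein osteopontin, gave most of this sum and was 22089 ± 561 (SD, n = 4) in ACLY KO and 22213 ± 1097 (n = 3) in ACSS2 KO cells, a difference of -0.01 that did not pass the test (adjusted p = 0.90). Both lines thus carried little mRNA of mature hepatocytes and much of the biliary keratins and osteopontin. In these cultures, fewer cells of a type and less RNA per cell cannot be told apart.

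Of the 12676 genes tested, 598 (4.72%) were differentially expressed with higher levels in ACLY KO and 747 (5.89%) with lower levels. At an adjusted p under 0.05 alone, 4438 (35.0%) were higher and 4487 (35.4%) were lower, and for 68.6% of all genes tested the 4 and the 3 libraries did not overlap. These shares are the background against which each gene list below is to be read. Most genes named below were picked for a small adjusted p or a large change, so their lack of overlap follows largely from that choice. The median log2 fold change over all genes was 0.0064, and 64.7% of genes lay within 0.50 of 0 in either direction. The median SE was 0.07.

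The WT and DKO1 libraries, which took no part in the choice of these genes, showed which line lay away from the parental level. Of the 598 genes higher in ACLY KO, all 4 WT libraries lay nearer the ACSS2 KO mean for 470 (78.6%) and nearer the ACLY KO mean for 37. Of the 747 lower genes, the WT libraries lay nearer ACSS2 KO for 401 (53.7%), nearer ACLY KO for 150 (20.1%) and were split for 196. DKO1 cells, which descend from the ACLY KO line, lay nearer ACLY KO for 404 (67.6%) of those that were higher and for 653 (87.4%) of those that were lower. The higher genes were therefore mostly genes raised above WT in the ACLY KO line, while the lower genes held a larger share for which the ACSS2 KO line lay away from WT.

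**Figure D1:**
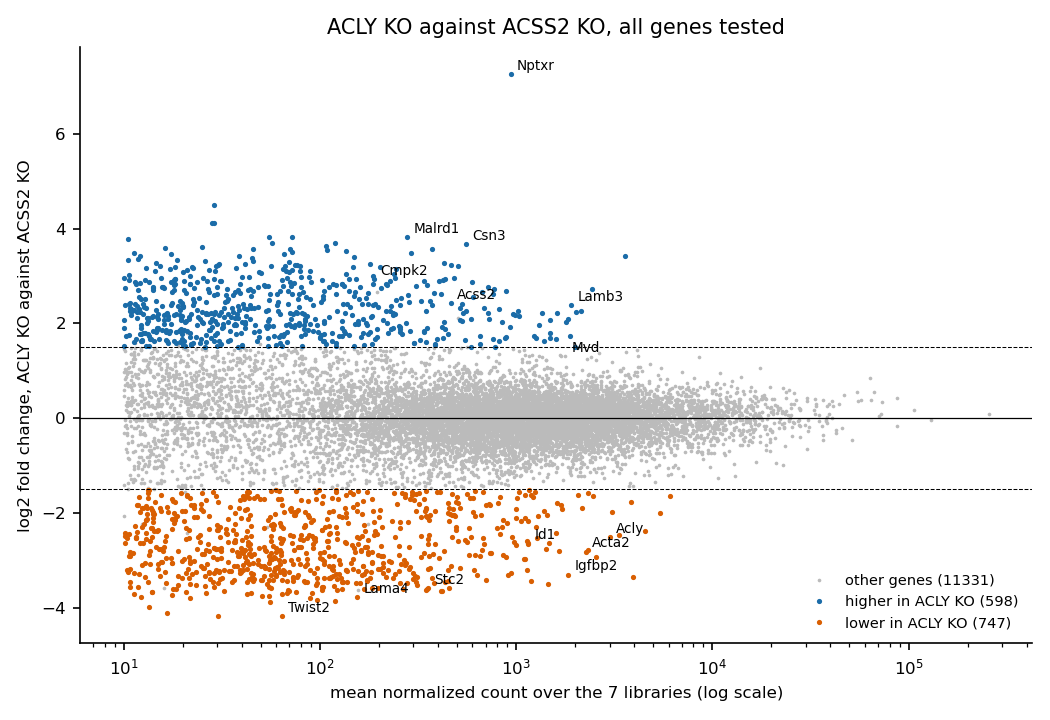
Each point is 1 of the 12676 genes tested, with the mean normalized count over the 7 libraries (log axis) against the log2 fold change of ACLY KO over ACSS2 KO, and differentially expressed genes colored. The 598 higher and 747 lower genes lie mostly at low and middle levels of expression, and Acly and Acss2 lie at -2.51 and 2.43, while Nptxr at 7.26 rests on libraries that overlap.

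Among 17 genes of the cytosolic acetyl-CoA supply, 13 passed the filter, 4 were higher in ACLY KO cells, 6 were lower and 3 did not pass the test. Beside Acly, the citrate route held Slc25a1, the mitochondrial citrate carrier, at a log2 fold change of -0.20 (SE 0.07, adjusted p = 0.016, and 0.053 without ACSS2 KO replicate 1) and Mdh1, the cytosolic malate dehydrogenase that reduces the oxaloacetate left by ACLY, at 0.52 (SE 0.05, adjusted p = 4e-06). In the acetate route the largest difference beside Acss2 was in Acss3, a mitochondrial acyl-CoA synthetase that prefers propionate. Acss3 was 46.5, 48.1, 49.2 and 48.5 in ACLY KO and 1.37, 3.61 and 1.06 in ACSS2 KO libraries. The latter values are worth few reads, so the size of its fitted difference depends on the added constant. WT cells had 3.92 ± 1.37 and DKO1 cells a mean of 12.5, so the ACLY KO line alone carried this level.

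The monocarboxylate carriers, which move lactate, pyruvate and acetate across the plasma membrane, were lower in ACLY KO cells, by a large factor for 1 of them. Slc16a3, the lactate exporter MCT4, was 152, 138, 123 and 137 in ACLY KO and 501, 566 and 549 in ACSS2 KO libraries, a log2 fold change of -1.96 (SE 0.09, adjusted p = 1e-08). All 4 ACLY KO libraries lay below all 3 ACSS2 KO libraries, and both lines lay below WT at 1633 ± 92.8. Slc16a1, which encodes MCT1, differed by -0.15 (adjusted p = 0.0078), a call that was lost in the fit of all 14 libraries (adjusted p = 0.12) and after a correction for transcript length (-0.07). In the acetylcarnitine route, Crat, the acetyltransferase that makes and uses acetylcarnitine, was slightly higher in ACLY KO cells at 0.17 (adjusted p = 0.0082), a call that was lost with the chromosome median subtracted (-0.04) and in the fit of all 14 libraries (adjusted p = 0.22), and the carnitine importer Slc22a5 was lower at -0.31 (adjusted p = 0.0066). The acylcarnitine carrier Slc25a20 differed by 0.08 (adjusted p = 0.26). The acetyl-CoA transporter of the endoplasmic reticulum, Slc33a1, differed by 0.06 (adjusted p = 0.28), and of the thioesterases Acot13 was lower at -0.25 (adjusted p = 0.011) and Acot8 differed by 0.22 without passing the test (adjusted p = 0.054). With the chromosome median subtracted, Slc33a1 stood at -0.18 (adjusted p = 0.004) and Acot13 at 0.17. Without ACLY KO replicate 1, Acot8 stood at 0.25 (adjusted p = 0.05).

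**Figure D2:**
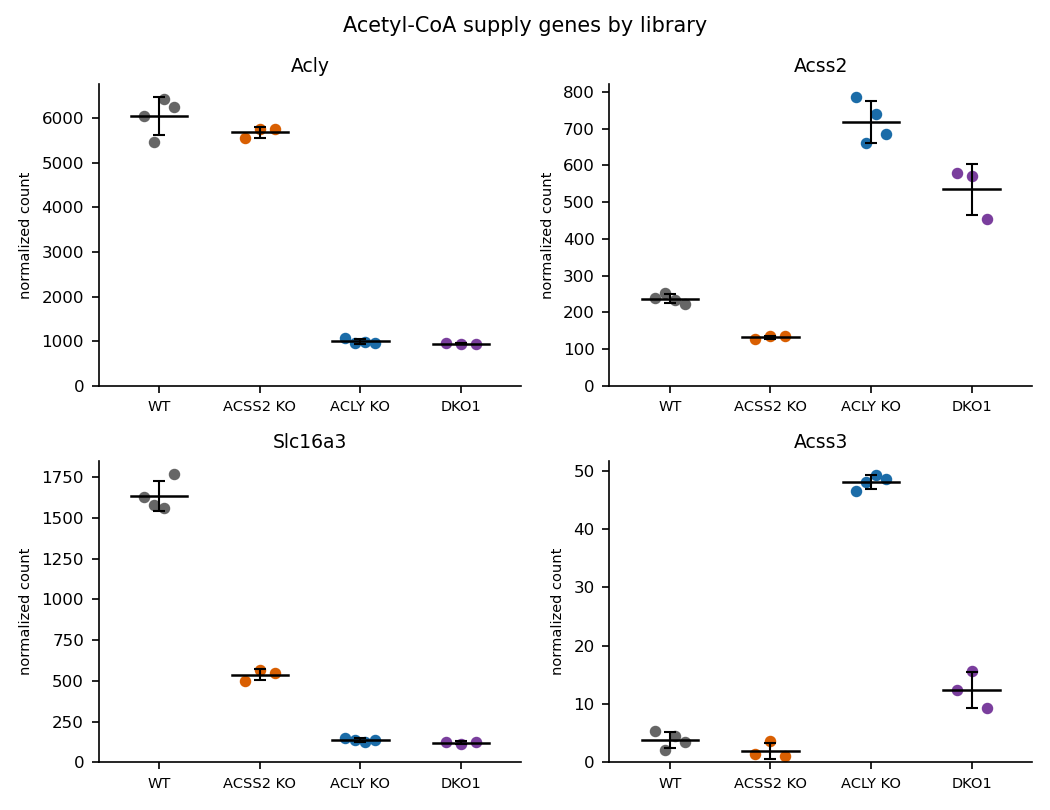
Normalized counts (linear axes from 0) of Acly, Acss2, Slc16a3 and Acss3 in WT, ACSS2 KO, ACLY KO and DKO1 cells, with 1 point per library and the mean ± SD in black. The 4 ACLY KO and the 3 ACSS2 KO libraries do not overlap for any of these genes, and Acss3 is at 46.5 to 49.2 in ACLY KO libraries against at most 3.61 in ACSS2 KO libraries.

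Among the metabolic lists, sterol synthesis had the highest share of members that differed in 1 direction. Of 22 enzymes, 17 (77.3%) were higher in ACLY KO cells against a background of 35.0%, 3 were lower and 2 did not pass the test, with a median log2 fold change of 0.45. None of the 17 reached the stricter call, which 1 of the 3 lower enzymes did. The rise was found in early mevalonate steps (8 of 9) and in the later sterol steps (9 of 13). Mvd, which makes isopentenyl pyrophosphate, was 2723, 2084, 2412 and 2353 in ACLY KO and 975, 973 and 947 in ACSS2 KO libraries, a log2 fold change of 1.30. Lss, which closes the sterol rings as lanosterol, was 3383, 2958, 3298 and 2947 against 1649, 1772 and 1811. For both genes each ACLY KO library lay above each ACSS2 KO library. Sqle, which oxidizes squalene, and Cyp51, which demethylates lanosterol, rose by 0.67 and 0.64, and Hmgcs1, the synthase of an early mevalonate step, was higher by 0.35 (SE 0.05, adjusted p = 4.4e-05).

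As a list, the enzymes did not stand above WT in the ACLY KO line. The mean log2 distance of the 22 genes from the ACSS2 KO mean was 0.41, 0.22, 0.31 and 0.28 in ACLY KO, 0.37, 0.44, 0.37 and 0.33 in WT, and 0.60 to 0.66 in DKO1 libraries. The ACSS2 KO line thus had the lowest mean of sterol synthesis transcripts among the 4 genotypes, a difference from WT that was not tested here.

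Genes that take up, export or store sterol were divided. Of 18 tested, 7 were higher and 7 lower, and all 6 that were differentially expressed were lower in ACLY KO cells. Insig1, which holds SREBP in the endoplasmic reticulum and is itself an SREBP target, was higher at 5275, 4332, 4614 and 4563 against 2454, 2552 and 2321 (log2 fold change 0.94). The lower genes were of other kinds. Soat1, which esterifies cholesterol for storage, was 21.5, 25.5, 16.3 and 28.3 against 171, 164 and 167, a log2 fold change of -2.84 (SE 0.18, adjusted p = 1.5e-07). Scarb1, the receptor for high-density lipoprotein, was 230, 211, 185 and 199 against 841, 863 and 841, and Abca1, the cholesterol exporter, fell by 1.88 on the log2 scale. Lrp1, a large receptor for lipoprotein remnants and many other ligands, was 1527, 1365, 1455 and 1094 against 4340, 5938 and 5889. WT lay near ACLY KO for Lrp1 (1579 ± 345) and Abca1 (93.8 ± 21.3) and near ACSS2 KO for Soat1 (146 ± 11.8).

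Fatty acid synthesis as a list did not lean toward the ACLY KO line. Of 26 genes, 8 were higher, 13 lower and 5 without a difference that passed the test, with a median of -0.13. The synthesis enzymes themselves were higher in 4 of 6. Fasn, the fatty acid synthase, was 22055, 19057, 22827 and 17515 in ACLY KO and 13627, 15811 and 14230 in ACSS2 KO libraries, a log2 fold change of 0.48 (SE 0.09, adjusted p = 6e-04). Its groups did not overlap, but in the fit of all 14 libraries it did not pass the test (adjusted p = 0.19). Acaca, the carboxylase that makes malonyl-CoA, differed by 0.15 (adjusted p = 0.14) with overlapping libraries, and by 0.24 (adjusted p = 0.0033) without ACLY KO replicate 4. Elovl6, which extends palmitate, was 5979, 5352, 6000 and 4911 against 2549, 2735 and 2612 (log2 fold change 1.07). Mecr and Hsd17b12, reductases of mitochondrial fatty acid synthesis and of chain elongation, rose by 0.79 and 0.65. Scd2, the main desaturase transcript of these cells, differed by -0.10 (adjusted p = 0.19), or by 0.22 with the chromosome median subtracted, and all 4 tested regulators were lower, Srebf1 by -0.22. Of the NADPH sources, Pgd was higher by 0.60. G6pdx was lower by 0.95, at 827, 748, 871 and 778 in ACLY KO and 1493, 1523 and 1648 in ACSS2 KO libraries. In WT cells G6pdx was 818 in replicate 2 and 994.6 to 1029 in the other libraries, so WT lay nearer ACLY KO. The pentose phosphate pathway had 1 of 8 genes higher and 5 lower, with Rpia at -0.71.

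Fatty acid uptake and activation (5 of 14 higher and 5 lower) and triglyceride metabolism (9 of 23 higher and 9 lower) held as many rises as falls, with large differences in single genes. Acsf2, a mitochondrial acyl-CoA synthetase for medium chains, was 35.0, 32.1, 31.5 and 34.5 in ACLY KO and 318, 307 and 336 in ACSS2 KO libraries (log2 fold change -3.23). Acsbg1, a long-chain acyl-CoA synthetase, was 409, 449, 451 and 456 against 66.4, 74.1 and 76.8 (log2 fold change 2.59), so these synthetases differed in opposite directions. Mgll, which releases the last fatty acid of a glyceride, was 124, 107, 106 and 114 against 19.1, 16.2 and 17.4. Lipa, the acid lipase of lysosomes, fell by 1.05, and Vldlr, a receptor for triglyceride-rich lipoprotein, by 1.27. Of 28 genes of mitochondrial oxidation and ketone metabolism, 14 were higher and 8 lower (median 0.10), with Eci2 at -0.73 and Decr1 at -0.60. Of 32 peroxisomal genes, 9 were higher, 7 lower and 16 did not pass the test. Abcd3, a peroxisomal importer of fatty acids, was higher by 1.13 and Pex6, which recycles import receptors, lower by -0.45. In coenzyme A synthesis, 6 of 10 genes were higher, Ppcdc by 0.72, and the pantetheinase Vnn3, which breaks pantetheine down, fell by 2.38.

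Genes of glycolysis and gluconeogenesis were divided, with the largest differences in single isoforms. Of 26 tested, 11 were higher, 8 lower and 7 did not pass the test. Pfkp, the platelet form of phosphofructokinase, was 1300, 1310, 1270 and 1259 in ACLY KO and 3911, 3886 and 4244 in ACSS2 KO libraries (log2 fold change -1.64, SE 0.05, adjusted p = 3.7e-10), while Pfkm, the muscle form, was higher by 0.46. WT cells had 1876 ± 114 of Pfkp, so the ACSS2 KO line lay farther from WT than the ACLY KO line. The glucose transporter Slc2a1 was lower by -0.54, and Hk2, which phosphorylates glucose, differed by -0.01 (adjusted p = 0.91). At the entry of pyruvate, Pcx, the carboxylase that makes oxaloacetate, was 957, 993, 974 and 980 against 595, 579 and 583. Pdk1, a kinase that inhibits pyruvate dehydrogenase, was 1062, 1086, 1072 and 1089 against 631, 654 and 596. Both groups of libraries were narrow for these genes and did not overlap, which their choice by small adjusted p favors.

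The list of pyruvate entry and TCA cycle had 25 of 42 genes higher and 8 lower (median 0.17), or 14 higher in the fit of all 14 libraries, with Idh3b, a subunit of isocitrate dehydrogenase, at 0.57 and Gpt2, the mitochondrial alanine aminotransferase, at -1.16. Oxidative phosphorylation had 43 of 70 subunits higher and 9 lower (median 0.28), with Atp5f1 at 0.68, Cyc1 at 0.62 and Uqcrfs1, the Rieske subunit of complex III, at -0.84. The mean log2 distance of the oxidative phosphorylation subunits from the ACSS2 KO mean was 0.20, 0.17, 0.11 and 0.40 in ACLY KO libraries and 0.12, -0.10 and -0.01 in ACSS2 KO libraries, with the highest values in ACLY KO replicate 4 and ACSS2 KO replicate 1, the libraries with the negative correlations with transcript length. After a correction for transcript length 34 of the 70 subunits were higher with a median of 0.10, and in the fit of all 14 libraries 9 were, in place of 43. The 78 cytosolic ribosomal proteins, also short transcripts, had 36 higher and 5 lower (median 0.18, and 0.00 after the length correction), with Rpl34 at 1.18.

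**Figure D3:**
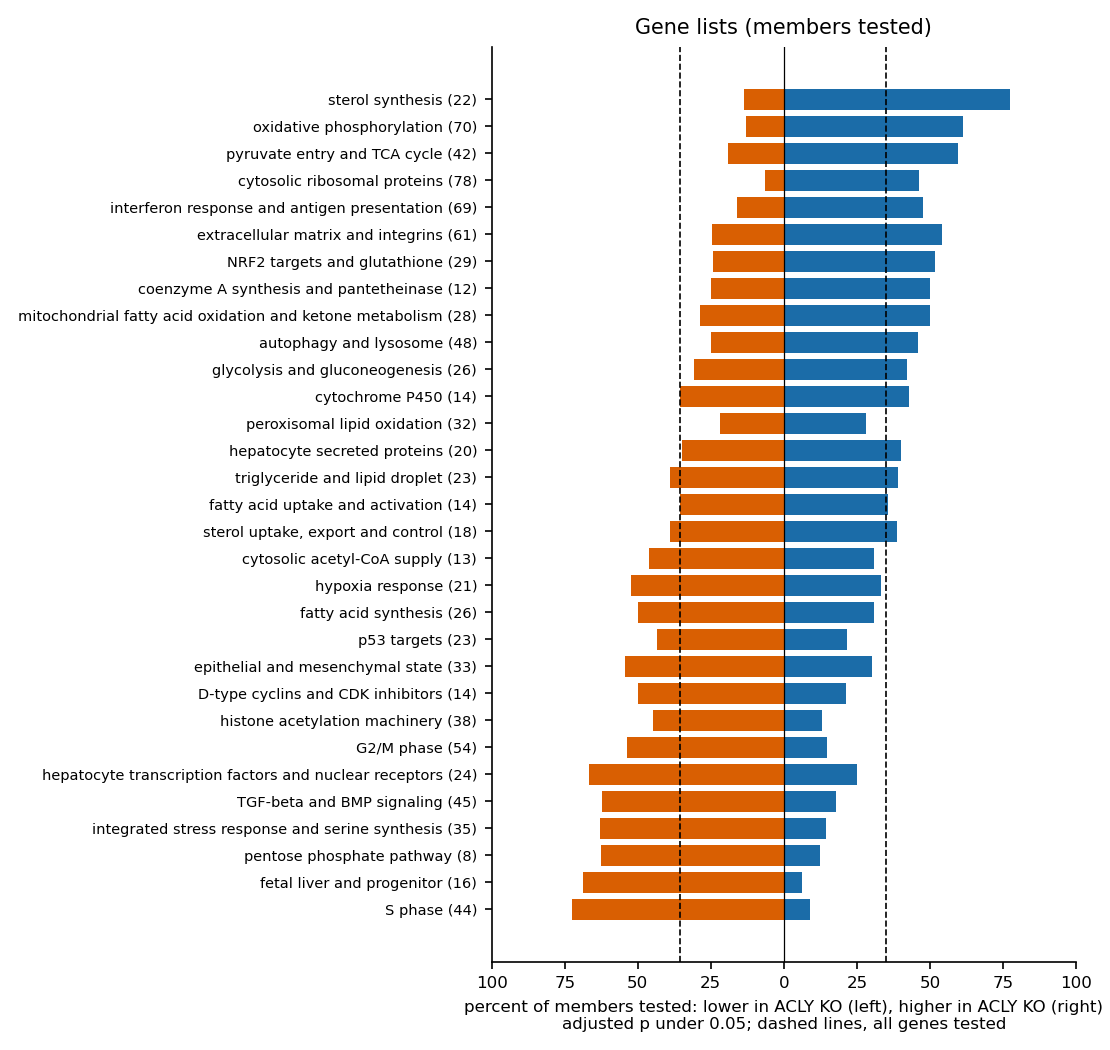
For each gene list, bars give the percent of tested members higher (right) and lower (left) in ACLY KO at an adjusted p under 0.05, with dashed lines at the background shares of 35.0% and 35.4%. Sterol synthesis reaches 77.3% on the higher side and S phase 72.7% on the lower side.

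Genes of the integrated stress response, the program that the transcription factor ATF4 runs when amino acids or protein folding are disturbed, were lower in ACLY KO cells. Of 16 stress response genes, 12 (75.0%) were lower, 2 higher and 2 did not pass the test, with a median of -0.52. Stc2, a secreted glycoprotein induced by this program, was 69.4, 57.6, 63.7 and 55.4 in ACLY KO and 713, 675 and 860 in ACSS2 KO libraries, a log2 fold change of -3.58 (SE 0.11, adjusted p = 8e-10). Chac1, which degrades glutathione, was 1222, 1254, 1235 and 1307 against 2691, 2463 and 3047, and Trib3, a pseudokinase, fell by 1.2. For all 3 genes ACSS2 KO replicate 4 was the highest library. Atf4 itself differed by -0.06 (adjusted p = 0.35), and Asns, the asparagine synthetase, by 0.06 (adjusted p = 0.44). With the chromosome median subtracted both passed, Atf4 at -0.37 (adjusted p = 7.8e-05) and Asns at 0.19 (adjusted p = 0.038), and Atf4 also passed after the length correction at -0.08 (adjusted p = 0.043). Of 19 genes of amino acid synthesis and transport, 10 were lower and 3 higher. Aldh18a1, which starts proline synthesis, was lower by -0.98, whereas Phgdh, which starts serine synthesis, was higher at 26324, 26678, 26179 and 28901 against 17643, 16667 and 17668. The list mean of the stress response genes was lower in WT than in both lines, although Stc2 itself was above ACLY KO in WT at 176 ± 21. WT lay at a mean log2 distance from ACSS2 KO of -1.31 to -0.96 against -0.74 to -0.62 for the ACLY KO libraries, so on this mean the ACSS2 KO line stood farthest above WT.

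NRF2 targets, which defend against oxidants and electrophiles, had 11 of 22 genes higher and 5 lower (median 0.17), and glutathione genes had 4 of 7 higher and 2 lower. Gclm, the modifier subunit of the enzyme that starts glutathione synthesis, was 5133, 5687, 5442 and 5409 against 2639, 2564 and 2501. Srxn1, which repairs peroxiredoxins, and Ephx1, the microsomal epoxide hydrolase, rose by 0.94 and 0.78. Cbr1, a carbonyl reductase, went the other way at 47.5, 49.1, 51.8 and 57.1 in ACLY KO against 603, 536 and 607 in ACSS2 KO libraries (log2 fold change -3.48), with WT between them at 172 ± 36.8. The list therefore did not move as a unit.

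Proliferation genes were lower in ACLY KO cells by small factors. Of 44 S phase genes, 32 (72.7%) were lower against a background of 35.4%, and 4 were higher, with a median of -0.28. Mcm5, a subunit of the replicative helicase, was 6453, 6418, 6329 and 6415 in ACLY KO and 9367, 9162 and 9384 in ACSS2 KO libraries (log2 fold change -0.54). Rrm2, a subunit of ribonucleotide reductase, was 7011, 7100, 7063 and 7395 against 10575, 10038 and 10002. Prim1, a primase subunit, fell by 0.80. The mean log2 distance of the S phase list from the ACSS2 KO mean was -0.32 to -0.27 in ACLY KO, 0.04 to 0.12 in WT and -0.57 to -0.52 in DKO1 libraries, so ACSS2 KO cells lay near WT and both lines without ACLY lay below. Of 54 G2/M genes, 29 were lower and 8 higher, with Kif11, a spindle motor, at -0.78 and Top2a, the topoisomerase that decatenates chromosomes, at -0.70. Rb1 fell by 0.82 and the inhibitors Cdkn2c and Cdkn1b by 0.59 and 0.45, while Cdkn2b rose by 0.74 and Ccnd1, the cyclin of early G1, differed by -0.03 (adjusted p = 0.52).

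The 38 genes of the histone acetylation machinery, which use or remove the acetyl groups that acetyl-CoA supplies, had 17 lower, 5 higher and 16 without a difference that passed the test (median -0.10). Sirt1, a nuclear deacetylase that depends on NAD, was the single one that was differentially expressed. It stood at 98.3, 97.2, 106 and 98.8 in ACLY KO and 456, 459 and 473 in ACSS2 KO libraries, a log2 fold change of -2.20 (SE 0.08, adjusted p = 1.4e-09). WT cells had 421 ± 46.3 and DKO1 cells a mean of 66.2, so the low level was shared by the lines without ACLY. Kat7, an acetyltransferase for histone H3, fell by 0.57, Hdac5 by 0.52 and Baz2a, a chromatin reader, by 1.05. Hdac9 was higher by 0.98. The acetyltransferases Ep300 and Crebbp differed by 0.11 (adjusted p = 0.45) and 0.09 (adjusted p = 0.56), and without ACLY KO replicate 4 by 0.24 (adjusted p = 0.0092) and 0.22 (adjusted p = 0.015).

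Transcription factors of liver identity were lower in ACLY KO cells. Of 24 hepatocyte transcription factors and nuclear receptors, 16 (66.7%) were lower, 6 higher and 2 did not pass the test (median -0.48). The 9 transcription factors had 7 lower and 1 higher, and the 15 nuclear receptors or coactivators had 9 lower and 5 higher. The mean log2 distance of the nuclear receptor part from the ACSS2 KO mean was -0.34 to -0.24 in ACLY KO and -0.61 to -0.43 in WT libraries. For that part the ACLY KO line thus lay above WT, and ACSS2 KO lay farthest from WT. Foxa2, a pioneer factor of endoderm, was 384, 333, 330 and 349 in ACLY KO and 1329, 1201 and 1206 in ACSS2 KO libraries (log2 fold change -1.83). Cebpa, which drives hepatocyte differentiation, was 12.1, 15.3, 13.3 and 16.6 against 105, 95.1 and 112, and Prox1, a factor of liver outgrowth, was 31.2, 31.5, 40.5 and 31.6 against 183, 226 and 216. None of these groups overlapped. For Foxa2 WT lay with ACSS2 KO at 1286 ± 183, and for Prox1 with ACLY KO at 57.7 ± 11.8. Hnf4a, the central hepatocyte factor, was 28.7 ± 8.95 (SD, n = 4) and 39.8 ± 7.86 (n = 3), a difference of -0.49 that did not pass the test (adjusted p = 0.11), while without ACLY KO replicate 1 it was -0.66 (adjusted p = 0.034). Nr1d1, a repressor of the circadian clock, was higher at 713, 688, 775 and 722 against 230, 294 and 252.

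Liver products differed in both directions. Igfbp2, a secreted binding protein of insulin-like growth factors, was 458, 365, 330 and 392 in ACLY KO and 4215, 3479 and 3686 in ACSS2 KO libraries (log2 fold change -3.30). Alb, which encodes albumin, was 22.5, 25.4, 24.8 and 20.8 against 129, 137 and 135. Both transcripts were several-fold lower in each ACLY KO library than in any ACSS2 KO library. Mttp, which loads lipid onto apolipoprotein B, went the other way at 2063, 2264, 2292 and 2264 against 585, 525 and 485 (log2 fold change 2.06), as did Itih3, a plasma protease inhibitor chain, at 1.82. Of 14 tested cytochrome P450 and partner genes, 6 were higher and 5 lower. Cyp4b1, an enzyme that oxidizes fatty acids and xenobiotics, was 2577, 2609, 2650 and 2873 against 809, 807 and 806, and Por, the electron donor of these enzymes, was 5605, 5447, 5706 and 5694 against 2851, 2862 and 2687. Cyp4v3, a fatty acid omega-hydroxylase, was 14.3, 12.3, 10.3 and 14.9 against 129, 114 and 146, so members of the same P450 family differed in opposite directions. Among 16 fetal liver and progenitor genes, 11 were lower and 1 higher (median -0.71). Afp, which encodes alpha-fetoprotein, was the higher one at 132, 114, 134 and 128 against 34.2, 38.4 and 30.3. Krt19 and Krt7, keratins of bile duct and progenitor cells, fell by 1.06 and 1.18, and Igf2bp3, an RNA-binding protein of fetal tissues, fell by 1.56.

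Collagens were mostly higher in ACLY KO cells. Of 24 collagen genes, 14 were higher and 4 lower (median 0.53), and all 9 that were differentially expressed were higher. Col1a1 was 2497, 2260, 2651 and 2409 in ACLY KO and 498, 537 and 532 in ACSS2 KO libraries (log2 fold change 2.23, SE 0.06, adjusted p = 3.2e-10), Col3a1 was 407, 429, 391 and 375 against 68.6, 66.9 and 69.7, and Col6a1 was 1963, 2030, 1970 and 1763 against 489, 484 and 497. In each case the 4 ACLY KO libraries were several-fold above the 3 ACSS2 KO libraries. WT lay with ACSS2 KO, at 428 ± 38.5 for Col1a1. DKO1 did not follow the ACLY KO line for all collagens, since its mean was 477 for Col1a1 and 587 for Col3a1. Of 25 laminins and other matrix genes, 14 were higher and 8 lower. Lamb3, a chain of the epithelial laminin 332, was 2782, 2935, 3001 and 2964 against 555, 562 and 565, and Itgb6, the integrin chain that activates latent TGF-β, was 3306, 3076, 3394 and 3278 against 700, 644 and 686. Fn1, the most abundant matrix transcript here, differed by -0.24 (adjusted p = 0.086), and by -0.35 (adjusted p = 0.022) without ACSS2 KO replicate 1.

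Genes of the mesenchymal and epithelial states were divided. Of 14 mesenchymal genes, 6 were higher and 6 lower, and of 19 epithelial genes, 4 were higher and 12 lower. Acta2, smooth muscle actin, was 650, 624, 618 and 629 in ACLY KO and 4747, 4747 and 3868 in ACSS2 KO libraries (log2 fold change -2.81). Twist1, a transcription factor of mesoderm and of epithelial-mesenchymal transition, was 27.8, 22.1, 28.6 and 23.9 against 301, 220 and 252, and Cdh1, E-cadherin, was 70.7, 54.7, 59.9 and 49.6 against 179, 180 and 213. Acta2, Twist1 and Cdh1 were thus all low in the same 4 libraries. S100a4, a calcium-binding protein of motile cells, was higher at 1481, 1529, 1407 and 1790 against 345, 333 and 356. The 12 fibroblast and stellate markers, which include Col1a1, Col3a1 and Acta2, had 7 tested, of which 4 were higher and 3 lower, and they summed to 3608 to 3964 in ACLY KO and 5310 to 6244 in ACSS2 KO libraries. Of the 10 endothelial markers 3 were tested and all 3 were higher, with Pecam1 at 62.0, 62.9, 59.1 and 62.6 against 10.8, 6.19 and 10.9. The endothelial markers summed to 126 to 147 in ACLY KO and 17.0 to 30.2 in ACSS2 KO libraries, with Emcn and Clec4g at 0 in all 7. At such low ACSS2 KO values a marker passed the filter mainly through its ACLY KO libraries. The shared direction of the 3 tested was therefore largely set by the filter. The part of other cell types in the matrix differences was not tested.

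Most ligands of the TGF-β family, and the Id genes Id1 and Id3, were lower in ACLY KO cells. The BMPs are secreted proteins of the TGF-β family that act through SMAD1 and SMAD5 and induce the Id genes, inhibitors of differentiation factors. Of 11 tested ligands of the TGF-β and BMP list, 9 were lower and none higher (median -0.82), and over the whole list 28 of 45 genes (62.2%) were lower and 8 higher. Bmp2 was 12.5, 12.5, 15.1 and 16.0 in ACLY KO and 158, 141 and 156 in ACSS2 KO libraries (log2 fold change -3.35), and Bmp4 was 232, 182, 215 and 216 against 800, 787 and 754. All 4 ACLY KO libraries lay far below the 3 ACSS2 KO libraries for both ligands, and the same was seen for Id1 and Id3. Id1 was 374, 320, 326 and 408 against 2332, 2106 and 2192 (log2 fold change -2.63, SE 0.09, adjusted p = 9.7e-10), and Id3 was 230, 194, 167 and 219 against 1567, 1362 and 1408. Of the 18 inhibitors and targets of the list, 10 were lower and 4 higher (median -0.19). WT lay between the lines for all 4 of these genes, with 990 ± 250 for Id1 and 36.1 ± 9.4 for Bmp2. Tgfb2, another ligand, fell by 0.82 and Fstl1, a secreted binding protein of the family, by 1.27. Smad3, which carries the TGF-β branch, differed by 0.08 (adjusted p = 0.25, and 0.046 without ACLY KO replicate 4), and the receptor Tgfbr2 by -0.11 (adjusted p = 0.10).

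Interferon-stimulated genes, which interferons induce to restrict viruses, were higher in ACLY KO cells. Of 41 tested, 26 (63.4%) were higher, 3 lower and 12 did not pass the test, with a median of 0.76, and 12 were differentially expressed with higher and 1 with lower levels. The promoters of all genes with a RefSeq sequence were searched on both strands for GAAA, any 2 bases and GAAA again, the core of the element that interferon-activated factors bind, in the 250 bases before the RefSeq start of each gene. It was found for 18 of 34 interferon-stimulated genes with a promoter sequence (52.9%), for 306 of 9969 genes tested (3.07%) and for 936 of 27025 genes in all (3.46%). A gene counted once if any of its promoters held a match. A match describes the letters only. These genes are shown because all 4 rose and hold the element, from the RefSeq annotation of GRCm38.p6, each 5′ to 3′ on the strand of its gene with the match in capitals, which reads TTTC, 2 bases and TTTC where the element lies on the opposite strand.
Trim30a, chr7:104465210-104465239, minus strand: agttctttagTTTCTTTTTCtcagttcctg
Gbp2, chr3:142620594-142620623, plus strand: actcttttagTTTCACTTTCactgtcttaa
Gbp3, chr3:142559989-142560018, plus strand: caggacacagTTTCAGTTTCtatttcccag
Rsad2, chr12:26456553-26456582, minus strand: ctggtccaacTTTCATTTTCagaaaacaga

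The 4 genes behind these promoters were picked because they rose, so their values only describe the size of the rise. Whether genes with the element rose more often than those without it was not tested. Trim30a, a restraint on inflammatory signaling, was 237, 278, 409 and 259 in ACLY KO and 34.8, 39.8 and 45.4 in ACSS2 KO libraries (log2 fold change 2.83). Gbp2, a guanylate-binding protein, was 214, 226, 256 and 230 against 49.8, 51.2 and 64.7 (log2 fold change 2.05), and Gbp3 was 106, 140, 272 and 146 against 22.4, 19.6 and 29.4. Rsad2, the antiviral enzyme viperin, was 75.5, 65.3, 116 and 87.3 against 14.8, 10.7 and 17.8. None of the 4 overlapped, and ACLY KO replicate 3 was the highest library for each. Cmpk2, a mitochondrial nucleotide kinase next to Rsad2, was 295, 290, 331 and 289 against 51.7, 28.2 and 38.6. WT cells lay with ACSS2 KO, at 13.0 ± 5.55 for Rsad2, and DKO1 lay with ACLY KO, at a mean of 82.6.

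The pattern was not shared by all parts of the pathway. Ifitm3, which blocks virus entry, was lower at 34.2, 30.1, 46.3 and 28.2 against 200, 193 and 236. Of the 12 sensors and factors 2 were higher and 4 lower. Antigen presentation had 5 of 16 genes higher and 4 lower, with H2-Q4, a class I histocompatibility gene, at -1.26 and B2m, the shared light chain, at 0.48. The mean log2 distance of the interferon-stimulated genes from the ACSS2 KO mean was 0.75, 0.75, 1.31 and 0.79 in ACLY KO, -0.49 to -0.32 in WT and 0.77 to 1.18 in DKO1 libraries, so ACLY KO replicate 3 stood above its group while the other 3 alone were also above every ACSS2 KO library. Of 11 leukocyte markers 2 were tested, with 1 higher and 1 lower, and the 11 summed to 1158 to 1253 in ACLY KO and 1305 to 1393 in ACSS2 KO libraries.

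**Figure D4:**
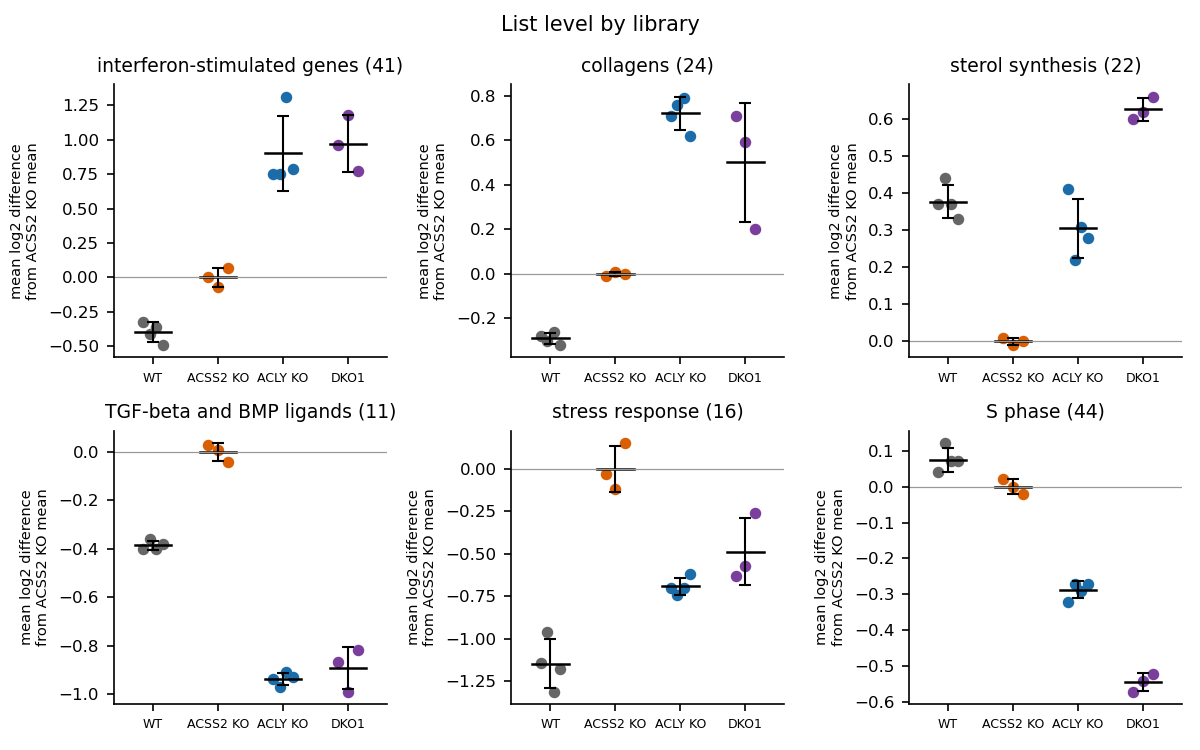
Mean log2 difference from the ACSS2 KO mean for 6 gene lists or parts of lists, with 1 point per library of the 4 genotypes and the mean ± SD in black. ACLY KO libraries lie above 0 for interferon-stimulated genes (0.75 to 1.31) and below it for S phase genes (-0.32 to -0.27), and the sterol synthesis points of WT (0.33 to 0.44) lie beside those of ACLY KO.

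The element that SREBP binds was searched for in the same way in the sterol genes. The letters TCACNCCAC were found for 1 of 17 sterol synthesis genes with a promoter sequence (5.88%), for 124 of 9969 genes tested (1.24%) and for 331 of 27025 genes in all (1.22%). The gene was Hmgcs1, a well-studied SREBP target, with the match in capitals and the plus strand of its gene shown.
Hmgcs1, chr13:119690204-119690232, plus strand: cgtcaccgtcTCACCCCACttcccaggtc

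Hypoxia genes were lower in 11 of 21 and higher in 7 (median -0.26), and all 4 that were differentially expressed were lower. Epas1, the oxygen-regulated factor HIF-2α, was 21.0, 12.3, 9.36 and 15.6 in ACLY KO and 119, 120 and 139 in ACSS2 KO libraries (log2 fold change -3.08). Vegfa, the endothelial growth factor, was 2531, 2325, 2216 and 2251 against 4795, 4682 and 5113, and Ak4, a mitochondrial adenylate kinase, fell by 2.57. The related factor Hif1a differed by -0.05 (adjusted p = 0.32). Of 23 p53 targets 5 were higher and 10 lower (median -0.0046), with Pmaip1 at -0.96 and Plk2 at 0.83, and of 48 genes of autophagy and lysosome 22 were higher and 12 lower (median 0.08), with Mitf, a factor of lysosome genes, at 1.31.

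The largest single differences were mostly in genes outside these lists. Malrd1 was 454, 483, 552 and 363 in ACLY KO and 30.4, 27.7 and 36.6 in ACSS2 KO libraries (log2 fold change 3.83), Dach2, a transcription cofactor, was 126, 121, 120 and 117 against 9.69, 7.77 and 5.83, and Pmfbp1 was 106, 84.6, 90 and 86.4 against 5.21, 9.99 and 3.13. The other 9 of the 12 largest rises were Adgrl3, Nrcam, Csn3, Fam19a2, Zfp985, 1110015O18Rik, Rhox5, C920009B18Rik and Mctp1, and WT libraries lay nearer ACSS2 KO for all 12. DKO1 did not share most of these rises. Its libraries all lay nearer ACLY KO only for Zfp985. They all lay nearer ACSS2 KO for Malrd1, Pmfbp1, Fam19a2, 1110015O18Rik and Mctp1, and were split for the rest. Twist2, a transcription factor related to Twist1, had the largest fall, at 14.4, 2.87, 5.80 and 7.87 against 135, 123 and 158 (log2 fold change -4.17). The others were Tmem151b, Bves, Rtl8b, Tspan13, Lama4, Nptx1, Tbc1d30, Tmem108, Ppp1r3b, Lgi2 and Mark1, and DKO1 libraries lay nearer ACLY KO for all 12. WT libraries lay nearer ACSS2 KO for Rtl8b and Tbc1d30 and were split for Tmem151b, Ppp1r3b and Lgi2. For the remaining falls WT lay nearer ACLY KO, so there the ACSS2 KO line was the one away from WT. The gene with the largest fitted value of all, Nptxr at 7.26, was listed at 0 in ACSS2 KO replicates 1 and 2 and at 413 in replicate 4, against 223, 2329, 1708 and 1901 in ACLY KO libraries. These libraries overlap, and Nptxr, P2rx7 and Trpm1 were the differentially expressed genes with an overlap among 1345.

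**Figure D5:**
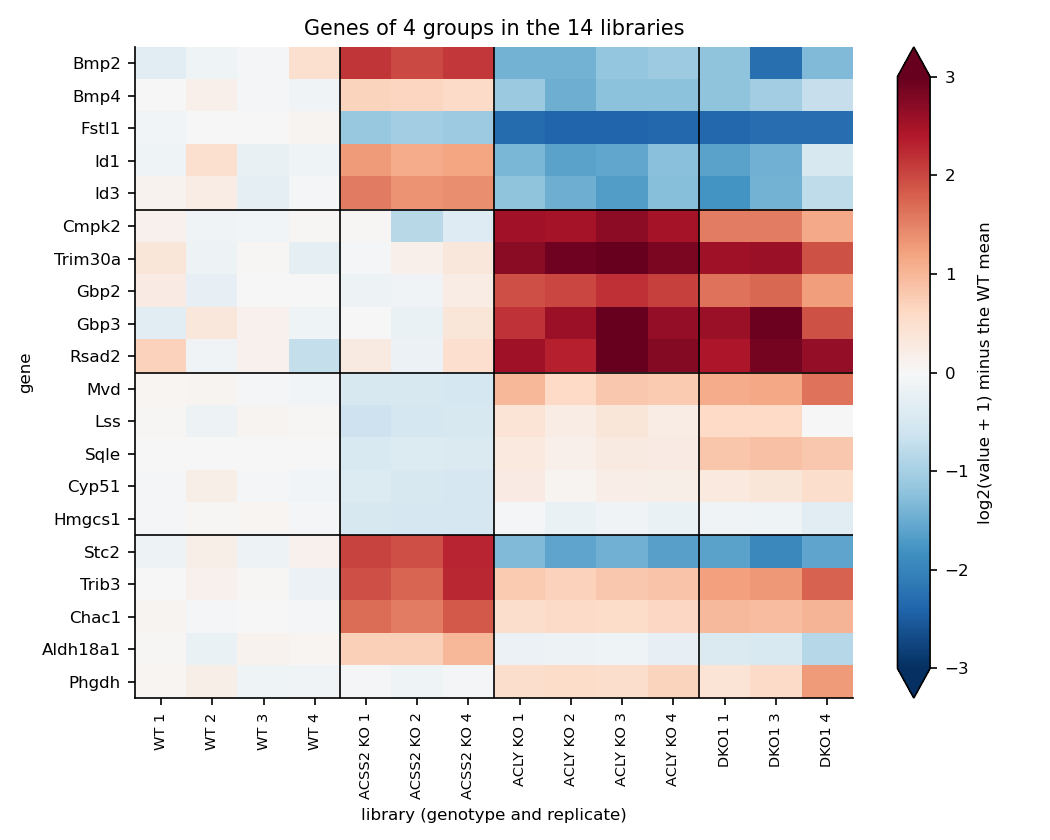
Log2 difference of each library from the WT mean for 20 genes of the BMP, interferon, sterol and stress response lists, with genes in rows and the 14 libraries in columns, and colors that end at 3 in either direction. Bmp2 and Stc2 are above the WT level in the 3 ACSS2 KO columns and below it in the 4 ACLY KO columns, and Trim30a and Rsad2 are above it in ACLY KO and DKO1 columns.

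Genes on the same chromosome were also shifted together. The median log2 fold change was -0.42 over 476 genes on chromosome 13, -0.32 over 468 genes on chromosome 19 and -0.28 over 414 genes on chromosome 14, and it was 0.31 over 506 genes on chromosome 15 and 0.24 over 622 genes on chromosome 3, against 0.0064 over all genes. Of the genes described above, Pfkp and Uqcrfs1 lie on chromosome 13 with lower values, Hmgcs1 lies on it with a higher value, Acta2 and Kif11 lie on chromosome 19, and Col3a1 and Lamb3 lie on chromosome 1, where the median was -0.13. The part of a chromosome-wide shift in single genes was not tested. With the median of its chromosome subtracted from each gene, 1284 of the 1345 differentially expressed genes (95.5%) were also called. Of the 4 tested genes of the Y chromosome 1 was higher in ACLY KO, and Ddx3y was 356 ± 63.1 (SD, n = 4) and 322 ± 14.8 (n = 3) against 1633 ± 103 in WT cells and 4630 ± 499 (n = 3) in DKO1 cells. The mean log2 distance of the 4 genes from the ACSS2 KO mean was 0.03 to 0.41 in ACLY KO, 2.23 to 2.43 in WT and 3.48 to 3.95 in DKO1 libraries, so DKO1 did not share the level of the ACLY KO line from which it is said to descend.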

How the data were processed

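Poly(A) RNA was sequenced as 75-base single-end reads on a NextSeq 500. The authors aligned the reads to GRCm38 with STAR and normalized them with the DESeq2 software (version 1.0.1 in the submitters' processing notes). The deposited signal values are gene counts after scaling by the authors, with a factor that differed between genes as well as between libraries. How reads were assigned to genes, and the annotation used, are not given in the sources used here. The values are not whole reads, so no model for counts could be applied, limma was chosen, and the spread between libraries gave the precision. Depth was implied from the commonest low value (under 3) of each library, taken as worth 1 read. Because the scaling factor also differed between genes, this gives only a rough figure.

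The table lists 24972 symbols, of which 26 read as dates and were left out and 5487 were at 0 in every library. Libraries were grouped by their titles. Genes with a mean of at least 10 over the 7 libraries were fitted in R 4.3.3 with limma 3.58.1 (intensity trend, log2(value + 1), Benjamini-Hochberg adjustment over 12676 genes). Lists were described by counts and medians, with no set test. The members and lists were chosen with earlier results of these data known. Genes were named if they belonged to the cytosolic acetyl-CoA supply, were among the 12 largest rises or falls (mean of at least 50, adjusted p under 0.01, no overlap), were among the 5 members of a list with the smallest adjusted p, or were members without a difference. The other 13 of 168 genes named (Afp, B2m, Cdh1, Fasn, Gbp3, Hmgcs1, Nptxr, P2rx7, Rsad2, Srebf1, Tgfb2, Trib3 and Trpm1) were chosen after their values were seen. Promoter sequences and chromosomes came from RefSeq (GRCm38.p6), matched by symbol. The fit was tested on simulated data with independent normal noise for each gene. The simulation held neither the trends with transcript length nor the chromosome shifts described above, so it does not cover them. Replicate numbers were tested as a pairing. The correlations of the deviations of same-numbered libraries were 0.022, -0.0023 and -0.031, so the numbers were not taken to pair the samples. Alternatives covered the added constant, filter, normalization, length, chromosome, replicate block, fitted libraries and each library left out. Some genes of the lists are not reported here by name.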

Additional observations from a re-analysis of the deposited data

Results flagged for a closer look

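For the 168 genes named, the 4 libraries of ACLY KO and of WT cells were each examined for a library that stood apart from the other 3, by the gap to its nearest neighbor as a share of the group's range. The 3 libraries of ACSS2 KO and DKO1 are too few for this. Of 336 groups of 4, 29 held such a library, where chance flags about 1 in 20. WT replicate 2 gave 17 of the 29, and WT enters no test here. Its normalized counts stood apart for Atp5f1 (11814), Cdkn2b (584), Crat (982), Fasn (10292), G6pdx (818), Id1 (1363), Idh3b (4031), Itih3 (107), Lama4 (43.9), Lipa (1429), Malrd1 (29.8), Mitf (43.3), Mttp (878), Nrcam (11.5), Rpia (3864), Slc16a1 (4873) and Uqcrfs1 (3795). WT replicate 1 stood apart for Emcn (1.34, against 0 in the other 3).

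Among ACLY KO libraries, replicate 4 stood apart for 6 genes, with Acot8 at 306, Atp5f1 at 12312, Ep300 at 3483, Fn1 at 31202, Mdh1 at 9131 and Rb1 at 475. This is the library with the strongest correlation with transcript length in its group. Replicate 1 stood apart for Acly (1084), Acsbg1 (409) and Mttp (2063), and replicate 3 for Cmpk2 (331) and Prox1 (40.5). Of these 11 genes, Acot8, Ep300 and Fn1 did not pass the test, and leaving out ACLY KO replicate 4 brought Ep300 past it.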

How the results depend on the processing

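Under 19 alternatives, 3035 of 3070 values of the genes named kept their side of the threshold. A change of direction was counted only where the gene passed the test in the main fit or in the alternative. By this rule 4 values reversed, all with the chromosome median subtracted: Acot13 at 0.17, Crat at -0.04, Scd2 at 0.22 and Slc33a1 at -0.18. The count of differentially expressed genes turned on the treatment of low values. With at least 10 in every library 310 were higher and 455 lower, with a mean of at least 50 these were 300 and 465, and with no filter 910 and 986. Each of these 2 stricter filters called 765 genes, 56.9% of the main calls, but the 2 sets were not the same. At an absolute log2 fold change over 1, 961 were higher and 1091 lower, and at over 2, 397 and 588. In the fit of all 14 libraries, an adjusted p under 0.05 was reached by 2946 genes with higher and 3232 with lower levels, the former including 14 of the 42 genes of pyruvate entry and TCA cycle and 9 of the 70 of oxidative phosphorylation. The fit with the replicate block called 594 genes higher and 750 lower, 1317 (97.9%) of them shared with the main calls, and among the genes named Crat (adjusted p = 0.058) and Slc25a1 (adjusted p = 0.064) lost their calls in it. With each library left out in turn, 593 to 610 genes were higher and 737 to 749 lower. At an adjusted p under 0.05 these were 4063 to 4486 and 4125 to 4550. Acly stayed between -2.54 and -2.49 and Acss2 between 2.38 and 2.47. The higher counts were 15 to 17 for sterol synthesis, 25 to 28 for interferon-stimulated genes and 13 to 15 for collagens. They were 33 to 49 for oxidative phosphorylation and 21 to 25 for pyruvate entry and TCA cycle. The lower counts were 30 to 32 for S phase and 27 to 28 for TGF-β and BMP signaling. They were 21 to 23 for the integrated stress response and 15 to 17 for hepatocyte transcription factors and nuclear receptors. List medians changed sign in 16 of 701 cases, such as fatty acid synthesis at 0.05 with the chromosome median subtracted. Except for the filters and the fit of all 14 libraries, whose construction changes the genes or libraries used, the cause was not tested. A DESeq2 fit was not run, since the values are not read counts. Genes near 1 read, such as Acss3 in ACSS2 KO cells, have no firm fold change at this depth.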

Other observations

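By group means, no gene with a high level in one line was near 0 in the other. Single libraries could be, since Nptxr was listed at 0 in ACSS2 KO replicates 1 and 2. Whether the authors' normalization sets a floor under such means, which would also bound the fold changes, was not tested. Of 9479 genes with an ACSS2 KO mean of at least 200 normalized counts, the lowest level in ACLY KO cells was 6.8% of it (Bves), and 143 genes lay under 15%. Of 9377 genes with an ACLY KO mean of at least 200, the lowest level in ACSS2 KO cells was 6.81% of it (Malrd1), and 40 genes lay under 15%.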
